A study of Mus musculus with 36 samples.

Results

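A set of 10 genes from one stretch of mouse chromosome 3 is described here in cultured lung endothelial cells (ECs) of 3 genotypes, namely Armc1, Gm37979, Mtfr1, Hps3, Hltf, Gyg, Tbl1xr1, Nceh1, Tnfsf10 and Pld1. They are 10 of the 51826 genes in the mRNA count table, and they were picked because their levels in Prog-Tg libraries stood apart from those in WT and LA-Tg libraries, so that these differences are given as a description and carry no test. Prog-Tg mice carry a human lamin A minigene with the G608G mutation of progeria, placed under a tet operon, together with a tetracycline-responsive trans-activator (tTA) driven by the endothelial Cdh5 promoter. LA-Tg mice carry the same driver with the wild-type lamin A minigene, and WT mice are the controls labelled wild-type, untreated like the others. Whether the WT animals carried the driver alone is not given in the sources used here. The minigene lines were of C57BL/6J and the driver line of FVB origin, and the mice were kept on C57BL/6J after a limited number of backcrosses. ECs came from mice 10 to 15 days old by the labels, and the cells were selected on ICAM-2 beads and harvested at passage 3, with 3 libraries per genotype. The study calls the replicates biological and states that its EC work used primary cells of different littermate pairs, while the labels do not tie a library to an animal or litter.

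The 10 genes do not form a pathway. Progerin is a truncated lamin A that stays farnesylated and disturbs the nuclear lamina, and the lamina is known to hold stretches of chromatin at the nuclear edge. Armc1 and Mtfr1 encode mitochondrial proteins, the former an armadillo-repeat protein with a part in mitochondrial distribution in human cells and the latter a regulator of mitochondrial fission. Hps3 is a subunit of BLOC-2, a complex needed for lysosome-related organelles, and Hltf encodes a SWI/SNF-related translocase and ubiquitin ligase that acts on stalled replication forks. Gyg encodes glycogenin, the primer of glycogen synthesis, and Tbl1xr1 a subunit of the NCoR and SMRT corepressor complexes. Nceh1 hydrolyses cholesterol esters, Tnfsf10 is the death ligand TRAIL, and Pld1 makes phosphatidic acid from phosphatidylcholine. Gm37979 is a transcript model without a known role, of the class TEC, which awaits experimental support.

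On GRCm38 the stretch from the start of Armc1 to the end of Pld1 covered 9.0 Mb, from base 19131402 to base 28133362 of chromosome 3. Armc1 (ENSMUSG00000027599, 19131402 to 19163065, minus strand) was followed after 24.3 kb by Mtfr1 (ENSMUSG00000027601, 19187327 to 19220817, plus strand). Hps3 (ENSMUSG00000027615, 19995945 to 20035315, minus), Hltf (ENSMUSG00000002428, 20057811 to 20118490, plus) and Gyg (ENSMUSG00000019528, 20122084 to 20155317, minus) sat side by side 0.78 Mb further on, with 3.6 kb between Hltf and Gyg. Tbl1xr1 (ENSMUSG00000027630, 22076652 to 22216594, plus) stood alone, 1.92 Mb after Gyg and 4.97 Mb before Nceh1. Nceh1 (ENSMUSG00000027698, 27182965 to 27284608, plus), Tnfsf10 (ENSMUSG00000039304, 27317028 to 27342427, plus) and Pld1 (ENSMUSG00000027695, 27938695 to 28133362, plus) closed the stretch.

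Gm37979 (ENSMUSG00000103135, 19143188 to 19143899, minus strand) lay wholly inside Armc1. Its 712 bases fell in the intron between exons 4 and 5 of the 7 exons of Armc1, on the same strand, 430 bases from the exon upstream, and shared 0 bases with Armc1 exons. Reads from unspliced Armc1 RNA and from a separate Gm37979 transcript cannot be told apart in these counts. Cp overlapped Hps3 on the opposite strand by 13.2 kb, of which 108 bases were exon in both, and the sources used here do not give the strand setting of the counting, so reads in those bases are uncertain for both genes.

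Promoters of Gyg, Tbl1xr1, Nceh1 and Pld1, which had lower means in Prog-Tg, are shown. Those of Hps3, Hltf and Tnfsf10, also with lower means, were searched in the same way and are not printed. The search was for exact short motifs alone, so other shared sequence would be missed. RefSeq promoters on GRCm38.p6, from 250 bases before to 50 bases after the annotated start, were matched for 7 of the 10 genes, giving 9 promoters. Armc1, Gm37979 and Mtfr1 were not matched. Capitals mark any of 5 short motifs searched on both strands. TATAAA was the TATA box searched. The GC box was spelled GGGCGG, which reads CCGCCC on the other strand. For the CCAAT box the search used CCAAT, which reads ATTGG on the other strand. The E-box was spelled CACGTG, and CCGGAAGT was the ETS motif.
Gyg, chr3:20155067-20155366, minus strand: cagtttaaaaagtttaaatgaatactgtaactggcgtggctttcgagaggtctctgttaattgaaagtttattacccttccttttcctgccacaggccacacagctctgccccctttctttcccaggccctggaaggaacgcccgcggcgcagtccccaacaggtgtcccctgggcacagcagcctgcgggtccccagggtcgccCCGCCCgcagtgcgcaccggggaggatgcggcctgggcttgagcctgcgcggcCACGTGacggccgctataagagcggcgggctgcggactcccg
Tbl1xr1, chr3:22076402-22076701, plus strand: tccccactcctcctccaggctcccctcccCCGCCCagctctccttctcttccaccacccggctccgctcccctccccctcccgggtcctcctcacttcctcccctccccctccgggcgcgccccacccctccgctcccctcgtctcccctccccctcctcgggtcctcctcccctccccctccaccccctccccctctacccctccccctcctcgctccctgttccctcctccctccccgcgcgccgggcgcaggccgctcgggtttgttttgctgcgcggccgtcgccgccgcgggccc
Nceh1, chr3:27182754-27183053, plus strand: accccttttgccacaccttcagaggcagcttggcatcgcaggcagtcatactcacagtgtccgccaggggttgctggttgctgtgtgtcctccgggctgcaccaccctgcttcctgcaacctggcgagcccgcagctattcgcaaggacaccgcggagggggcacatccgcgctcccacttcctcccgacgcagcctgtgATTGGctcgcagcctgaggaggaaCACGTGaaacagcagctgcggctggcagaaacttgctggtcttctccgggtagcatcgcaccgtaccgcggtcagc
Pld1, first of its starts, chr3:27938430-27938729, plus strand: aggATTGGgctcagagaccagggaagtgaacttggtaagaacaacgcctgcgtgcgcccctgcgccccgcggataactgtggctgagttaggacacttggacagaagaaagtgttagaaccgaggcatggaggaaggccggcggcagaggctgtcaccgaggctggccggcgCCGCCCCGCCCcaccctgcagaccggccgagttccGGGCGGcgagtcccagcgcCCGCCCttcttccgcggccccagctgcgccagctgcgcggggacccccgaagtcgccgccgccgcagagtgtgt

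None of the motifs searched was common to these 4 promoters. Gyg and Nceh1 each held 1 E-box, as did Hps3, against 7.15% of all 32851 promoters. A GC box was found in Gyg, Tbl1xr1, Hps3, 1 of the 2 Hltf promoters and, 4 times with one pair overlapping, in the first Pld1 promoter, against 35.66% of all promoters. CCAAT boxes stood in Nceh1, Tnfsf10, Hltf and Pld1 and in 37.41% of all promoters, a TATA box in the second Hltf promoter and in 13.62% of all, and the ETS motif in 0 of the 9 and in 3.89% of all. Tbl1xr1 had the richest promoter in G and C at 76.3%, Gyg had 62.0%, Nceh1 63.3% and the first Pld1 promoter 68.7%, and the median of all promoters was 52.7%. Each match is a description of letters in these windows.

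All 10 genes passed the filter on low counts, with 14584 of the 31094 genes that had a count. Gm37979 passed it through its Prog-Tg libraries alone, as it stood at 0.15 to 0.469 CPM in the other 6. Its values are thus a description only. Levels are CPM, read counts relative to the TMM-scaled total of a library, and fold changes are on the log2 scale with standard errors (SE) from edgeR's quasi-likelihood fit of all 9 libraries. Among all genes tested, 0 (0%) passed an adjusted p of 0.05 by edgeR in each of the 3 comparisons, and 496, 121 and 250 genes had an unadjusted p under 0.05 in Prog-Tg versus WT, LA-Tg versus WT and Prog-Tg versus LA-Tg. By limma-voom the count was again 0 in each. DESeq2 called 2 of 14547 genes (0.0137%) in Prog-Tg versus WT, both among the 10 genes (Armc1 and Gm37979), and 7 genes (0.0481%) in Prog-Tg versus LA-Tg, of which 5 were among the 10 (Armc1, Gm37979, Tbl1xr1, Nceh1 and Pld1). Since the 10 genes were chosen from these comparisons, nothing is read from the place of these calls among them.

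The libraries held 17961152 to 67602012 counts, and the third Prog-Tg library was the deepest. Endothelial markers were high in every library, and the 8 genes summed to 6747 to 8597 CPM in WT libraries, 7717 to 10872 CPM in those of LA-Tg and 6388 to 9945 CPM in those of Prog-Tg. Cdh5, which drives the trans-activator, stood at 2396 ± 973 CPM in WT, at 2842 ± 1047 in LA-Tg and at 2894 ± 602 in Prog-Tg (SD, n = 3 here and below), and Icam2, the sorting antigen, at 129 ± 56.2, 125 ± 31.5 and 85.3 ± 17.5 CPM. Of the epithelial markers 5 of 6 (Epcam, Cdh1, Sftpc, Krt8 and Scgb1a1), and of the leukocyte markers 4 of 6 (all but Cd68 and Lyz2), were under 1 CPM in every library. The 6 leukocyte markers summed to 11.4 to 39.2 CPM in WT libraries, 19.4 to 22.3 CPM in those of LA-Tg and 16.6 to 48.9 CPM in those of Prog-Tg, the highest in the first Prog-Tg library. The 8 smooth muscle and pericyte markers summed to 5.27 to 104, 3.92 to 419 and 27.5 to 135 CPM. The 7 lymphatic endothelial markers summed to 5106 to 8611 CPM in WT libraries, 1435 to 9244 CPM in those of LA-Tg and 1648 to 5245 CPM in those of Prog-Tg, and fibroblast markers to 100.5 to 422, 21.1 to 615 and 114 to 839 CPM.

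Of the 10 genes, the one at the left end of the stretch had the highest mean level per length of exon in Prog-Tg ECs. Armc1 stood at 38.7, 46.2 and 53.2 CPM in the 3 WT libraries, at 55.7, 63.2 and 55.4 in LA-Tg and at 83.2, 433 and 829 in Prog-Tg. Every Prog-Tg library lay above every other library, and the 3 differed among themselves by 9.96-fold, against 1.37-fold in WT and 1.14-fold in LA-Tg. The means were 46.1 ± 7.24, 58.1 ± 4.38 and 448 ± 373 CPM, and the log2 fold change was 3.28 (SE 0.679) against WT and 2.95 (SE 0.669) against LA-Tg. Without the third Prog-Tg library the values were 2.49 and 2.15, and without the first they were 3.77 and 3.44. Armc1 was also higher in each LA-Tg than in each WT library, by 0.34 (SE 0.624), with an edgeR adjusted p of 1.00.

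The transcript inside Armc1 followed the same order of libraries. Gm37979 stood at 0.244, 0.433 and 0.469 CPM in WT, at 0.415, 0.464 and 0.15 in LA-Tg and at 1.81, 7.96 and 16.2 in Prog-Tg. The means were 0.382 ± 0.121, 0.343 ± 0.169 and 8.66 ± 7.22 CPM, and the log2 fold change was 4.51 (SE 0.831) against WT and 4.64 (SE 0.836) against LA-Tg. Without the third Prog-Tg library these values were 3.68 and 3.80. WT and LA-Tg overlapped, at -0.12 (SE 0.8). The counts behind these levels were few outside Prog-Tg, namely 8, 9 and 9 reads in WT and 16, 8 and 3 in LA-Tg, beside 33, 146 and 1121 in Prog-Tg.

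Gm37979 was also a larger share of the reads of the locus in Prog-Tg. It took 0.625%, 0.927% and 0.875% of the Armc1 and Gm37979 counts together in WT and 0.74%, 0.73% and 0.27% in LA-Tg. In Prog-Tg the share was 2.13% (95% Wilson interval 1.52 to 2.98), 1.81% (1.54 to 2.12) and 1.92% (1.81 to 2.03). The 3 Prog-Tg shares lay above all 6 others and their intervals overlapped, while the Armc1 counts beneath them ran from 1516 to 57345. The highest upper limit outside Prog-Tg was 1.75%, in the second WT library. It lay above the lower limits of the first and second Prog-Tg libraries, 1.52% and 1.54%. These intervals cover at most counting error and leave out the spread between libraries. They treat each read as independent, and no molecular identifiers were described by which repeated reads of a molecule could be told apart. Both genes were chosen for their levels in Prog-Tg, so the shares are a description.

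**Figure D1:**
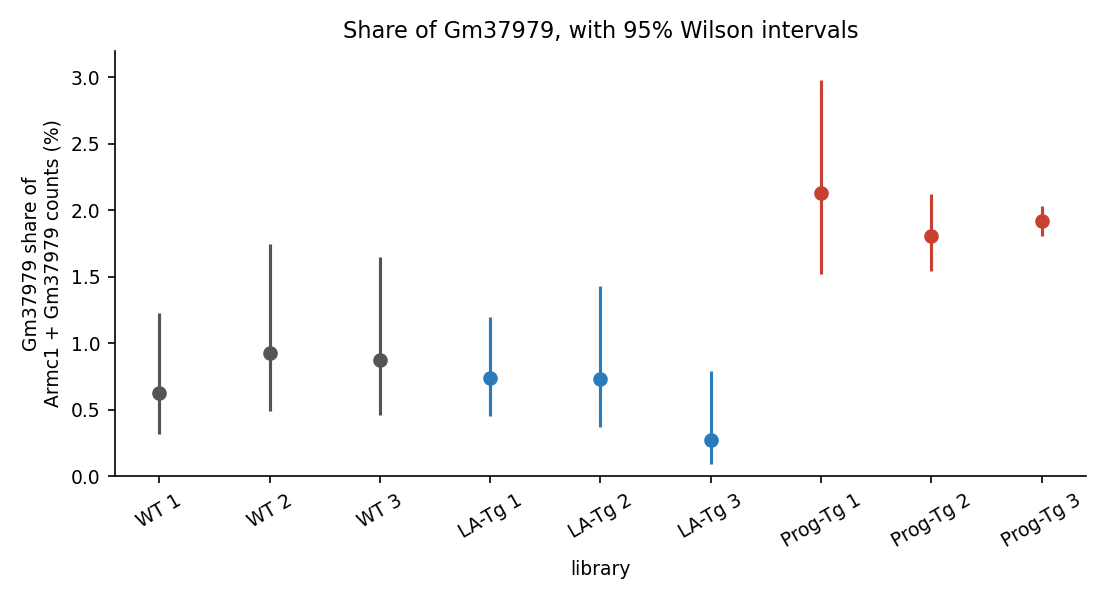
Share of Gm37979 in the summed counts of Armc1 and Gm37979 (%, vertical axis) in each of the 9 EC libraries (horizontal axis, WT grey, LA-Tg blue, Prog-Tg red), with 95% Wilson intervals as bars. The 3 Prog-Tg libraries sit between 1.81% and 2.13% and the other 6 between 0.27% and 0.927%.

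Lmna was read beside Armc1 as the gene closest to the transgene product. It lies on the same chromosome at 88480147 to 88509956, far outside the stretch, and reads of the human minigene that align to it are part of its counts. Its level was 284, 177 and 200.4 CPM in WT, at 251, 401 and 421 in LA-Tg and at 275, 469.6 and 548 in Prog-Tg. The first Prog-Tg library was thus the lowest of its genotype for Lmna, Armc1 and Gm37979 and the third the highest. Whether minigene level has a part in the spread of Armc1 was not tested.

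Mtfr1, the next of the 10 genes on the map, was lower in Prog-Tg, although its span lies 24.3 kb from that of Armc1. It stood at 33.3, 38 and 56.8 CPM in WT, at 47.2, 62.6 and 53.7 in LA-Tg and at 25, 30.1 and 34.3 in Prog-Tg. The Prog-Tg libraries lay below all LA-Tg libraries and overlapped WT in 1 of 3, where the third Prog-Tg library passed the first WT library. The log2 fold change was -0.52 (SE 0.227) against WT and -0.87 (SE 0.228) against LA-Tg, and LA-Tg was at 0.35 (SE 0.226) against WT.

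**Figure D2:**
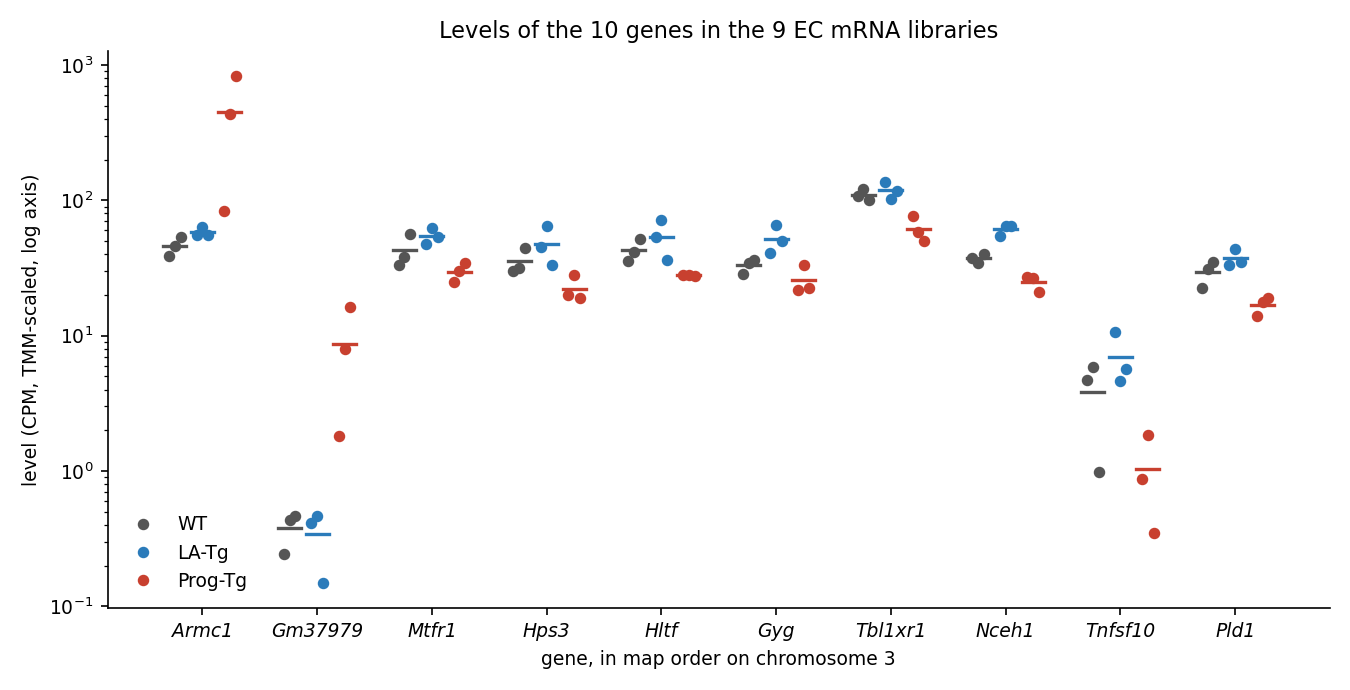
Level of each of the 10 genes (CPM after TMM scaling, log axis) in map order, with 1 point per library, 3 per genotype, and bars for the means (WT grey, LA-Tg blue, Prog-Tg red). Armc1 and Gm37979 are highest in Prog-Tg, at means of 448 and 8.66 CPM, and the Prog-Tg means of the other 8 genes are the lowest of the 3 genotypes.

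Hps3, Hltf and Gyg lie side by side and had their lowest means in Prog-Tg. Hps3 stood at 30.1, 31.9 and 44.8 CPM in WT, at 45.4, 65 and 33.4 in LA-Tg and at 20.1, 28 and 18.9 in Prog-Tg. All 3 Prog-Tg libraries were below the other 6, with a log2 fold change of -0.67 (SE 0.281) against WT and -1.10 (SE 0.283) against LA-Tg. Its neighbour Hltf stood at 35.9, 41.6 and 52 CPM in WT and at 53.8, 71.3 and 36.1 in LA-Tg. In Prog-Tg the values of Hltf were 28.1, 28 and 27.7 CPM, a spread of 1.01-fold, again below the other 6. Its log2 fold change was -0.63 (SE 0.244) against WT and -0.94 (SE 0.245) against LA-Tg.

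Gyg differed more from LA-Tg than from WT. It stood at 28.6, 34.7 and 36.1 CPM in WT, at 40.5, 66.1 and 49.7 in LA-Tg and at 21.7, 33.3 and 22.5 in Prog-Tg. The second Prog-Tg library lay inside the WT range, while every LA-Tg library lay above every WT and every Prog-Tg library. The log2 fold change was -0.36 (SE 0.234) against WT and -1.01 (SE 0.236) against LA-Tg, and 0.65 (SE 0.234) for LA-Tg against WT, with an edgeR adjusted p of 1.00.

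Tbl1xr1, alone on the map between the other groups, was lower in every Prog-Tg library. It stood at 108, 122 and 100.4 CPM in WT, at 137, 102 and 118 in LA-Tg and at 76.6, 58 and 50.3 in Prog-Tg. The means of WT and LA-Tg, 110.2 ± 11.2 and 119 ± 17.8 CPM, overlapped in their libraries at a log2 fold change of 0.11 (SE 0.185), and all Prog-Tg libraries lay below them. The log2 fold change of Prog-Tg was -0.84 (SE 0.186) against WT and -0.95 (SE 0.187) against LA-Tg. The lincRNA Gm43672, which starts 509 bases from Tbl1xr1 on the opposite strand, stood at 3.75, 6.63 and 2.3 CPM in WT, at 7.01, 1.34 and 7.84 in LA-Tg and at 1.98, 0.654 and 0.708 in Prog-Tg. It was chosen for mention after its values were seen, as the gene that lies next to Tbl1xr1.

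Nceh1 set the 3 genotypes apart from one another. It stood at 37.3, 34.2 and 40.1 CPM in WT, at 54.6, 65.1 and 64.6 in LA-Tg and at 27, 26.7 and 21 in Prog-Tg. No library of any genotype reached into the range of another, and the spread within a genotype was 1.17-fold to 1.28-fold. The Prog-Tg mean was 66.8% of the WT mean and 40.5% of the LA-Tg mean, and the LA-Tg mean was 165% of the WT mean. Prog-Tg against LA-Tg was at a log2 fold change of -1.31 (SE 0.149, edgeR adjusted p = 0.25). The log2 fold change was -0.58 (SE 0.147) for Prog-Tg and 0.72 (SE 0.147) for LA-Tg against WT, the latter with an edgeR adjusted p of 1.00. Over the alternatives the latter ran from 0.67 to 0.80, with adjusted p from 0.11 to 1.0.

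Tnfsf10 was the least abundant of the protein-coding genes per length of exon and varied 5.92-fold within WT. It stood at 4.72, 5.86 and 0.991 CPM in WT, at 10.6, 4.64 and 5.69 in LA-Tg and at 0.878, 1.85 and 0.347 in Prog-Tg. The third WT library was as low as the Prog-Tg libraries, so that the groups overlapped, whereas all Prog-Tg libraries lay below all LA-Tg libraries. The Prog-Tg mean was 26.6% of the WT mean and 14.7% of the LA-Tg mean, with log2 fold changes of -1.95 (SE 0.783) and -2.80 (SE 0.802). Without the second Prog-Tg library the fold changes were -2.71 and -3.56, and without the third they were -1.50 and -2.35.

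Pld1, the last of the 10 on the map, was below the other 6 libraries in all 3 Prog-Tg libraries. Its levels were 22.6, 31.3 and 35 CPM in WT, at 33.3, 43.6 and 34.8 in LA-Tg and at 13.9, 17.7 and 19 in Prog-Tg. The Prog-Tg mean was 56.9% of the WT mean and 45.3% of the LA-Tg mean. The log2 fold change was -0.81 (SE 0.211) and -1.14 (SE 0.212), and LA-Tg overlapped WT at 0.33 (SE 0.209).

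Per length of exon, as CPM divided by exon length in kilobases (RPKM), the genes held much the same order in WT and LA-Tg. Gyg led in WT with 14.1 RPKM, followed by Armc1 with 12.5, Tbl1xr1 with 12.4, Mtfr1 with 9.77, Hltf with 7.28 and Nceh1 with 7.08, and each of these overlapped the next in its libraries. Hps3 (3.91 RPKM), Pld1 (2.29) and Tnfsf10 (0.732) came below, the first of them apart from Nceh1, and Gm37979 was last with 0.537, overlapping Tnfsf10. In LA-Tg the order was that of WT except that Nceh1 (11.7 RPKM) passed Hltf (9.06), with which it overlapped. In Prog-Tg Armc1 led with 122 RPKM, from 22.7 to 226 over the libraries. Gm37979 was the second with 12.2, from 2.54 to 22.8, so that its range overlapped those of Armc1 and Gyg (11). The lowest values of Armc1 and Gm37979 came from the first Prog-Tg library and the highest from the third, and Armc1 was higher within each library. Tbl1xr1 (6.92 RPKM) and Mtfr1 (6.82) overlapped, as did Nceh1 (4.74) and Hltf (4.71), and Tnfsf10 was last with 0.195.

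As a share of their WT means, the 8 lower genes had much the same median in each Prog-Tg library but ranged widely within a library. The median share was 61.8%, 67.7% and 60.3% in the 3 Prog-Tg libraries, 85.4%, 101% and 114% in WT and 125%, 156% and 122% in LA-Tg. The shares ran from 22.8% to 72.4% in the first Prog-Tg library, from 48% to 100.4% in the second and from 8.99% to 80.5% in the third, with Tnfsf10 the lowest in the third and Gyg the highest in the second. The first Prog-Tg library, lowest of its genotype for Armc1, had a median share of these 8 genes between those of the other Prog-Tg libraries. The second LA-Tg library had the highest median share and the lowest summed level of lymphatic markers (1435 CPM), beside 5245, 1648 and 2549 CPM in the 3 Prog-Tg libraries. Fewer cells of a type and less RNA per cell cannot be told apart in these bulk libraries.

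**Figure D3:**
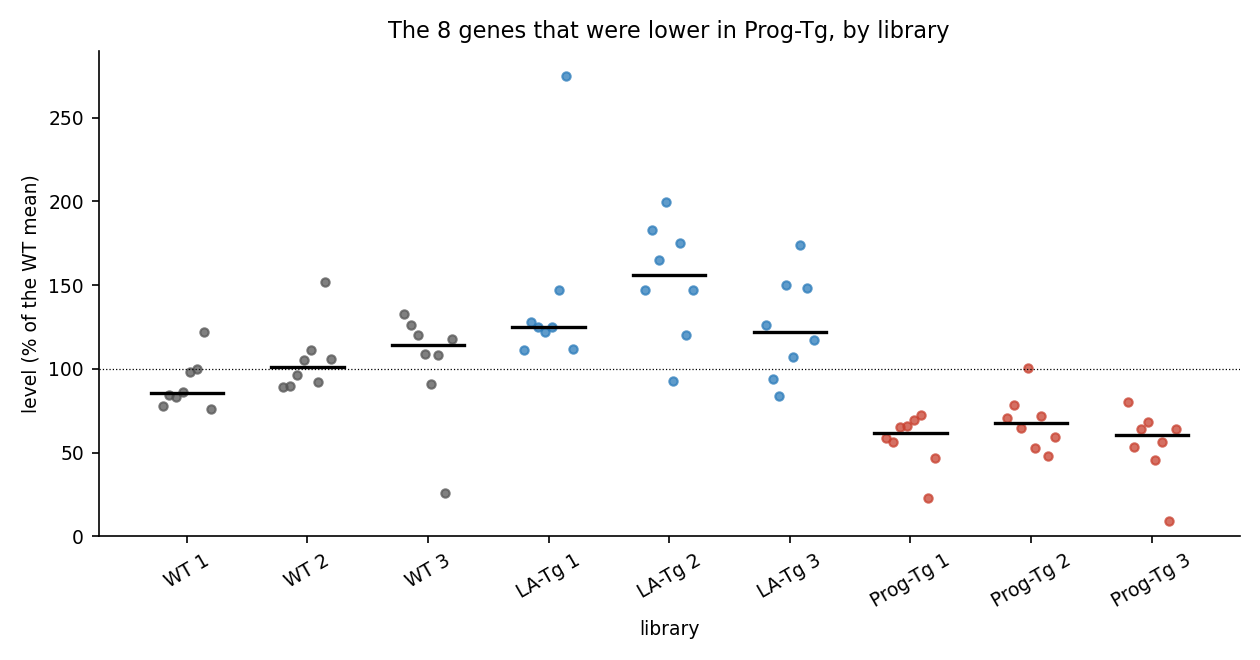
Level of the 8 genes that were lower in Prog-Tg as a percentage of each gene's WT mean (vertical axis) in the 9 libraries (horizontal axis), with 1 point per gene, colours by genotype and black bars for the medians. The Prog-Tg medians are 60.3% to 67.7% and the LA-Tg medians 122% to 156%.

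At the thresholds of the study, an unadjusted p under 0.05 and a fold change over 1.5, the 10 genes were counted beside all genes tested. In Prog-Tg versus WT 5 of them were past these thresholds as lower (Hps3, Hltf, Tbl1xr1, Tnfsf10 and Pld1), against 1.82% of all genes, and 2 as higher, against 0.939%. Hltf was just inside the fold threshold at -0.63 and Nceh1 just outside at -0.58. The libraries of the 2 genotypes did not overlap for 5 lower genes (7.17% of all genes) and 2 higher genes (6.56%). In Prog-Tg versus LA-Tg all 10 were past the thresholds, 8 as lower (0.693% of all genes) and 2 as higher (0.555%), and none overlapped (3.14% of all genes for lower and 2.76% for higher). The 3 Prog-Tg libraries were below all 6 others for 5 genes (Hps3, Hltf, Tbl1xr1, Nceh1 and Pld1; 0.987% of all genes) and above them for Armc1 and Gm37979 (0.631%). Because both comparisons chose the genes, nothing is read from these counts. The median log2 fold change of the 10 was -0.61 against WT and -0.98 against LA-Tg, beside -0.008 and -0.003 over all genes. The count of 5 lower genes against WT was 3 without the first or the third Prog-Tg library and 3 without the second or the third WT library, and 4 without the first or the third LA-Tg library. Over all genes the lower ones ran from 51 to 539 in these fits, instead of 266.

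These counts were also taken with terms for features in which the libraries differed. With the lymphatic score, the mean log2 CPM of the lymphatic markers, as a term, 36 genes of the table were past the thresholds as lower and 39 as higher in Prog-Tg versus WT, instead of 266 and 137. Among the 10 genes 7 were then past them as lower and 2 as higher. The level of Y-linked transcripts also differed between libraries, from 4.58 to 6.42 on the log2 scale in WT, and was -3.6 and -3.82 in 2 LA-Tg libraries and -3.82 in 1 Prog-Tg library. No WT library was at such low values, so the Y-linked level was not balanced over the genotypes. With that level as a term 163 genes of the table were past the thresholds as lower and 92 as higher in Prog-Tg versus WT. Among the 10 genes it was 6 as lower and 2 as higher. With either term, edgeR called 0 of the 10 genes on adjusted p in Prog-Tg versus WT. The 10 genes were chosen for their levels in these libraries, so nothing is read from their counts beside those of all genes.

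The LA-Tg libraries give the levels of the same genes under a lamin A transgene without the mutation, carried by another transgenic line. Line and mutation thus cannot be told apart in any comparison with Prog-Tg. The LA-Tg libraries share the WT libraries with the first comparison. They entered the choice of the genes through the other, so the values are set side by side. Of the 10 genes 9 were above 0 in LA-Tg versus WT, with a median of 0.34, beside -0.006 over all genes tested. Only Gm37979 was below 0. At the study thresholds 2 were higher (Gyg and Nceh1, against 0.35% of all genes) and 0 lower, and the 3 LA-Tg libraries lay above the 3 WT libraries for Armc1, Gyg and Nceh1, against 1.92% of all genes. With the second LA-Tg library left out, or the first WT library, 1 gene was past the thresholds, and with the third WT or the third LA-Tg library left out it was 3. After adding the lymphatic score or the Y-linked level to the fit it was 1. Over all genes 21 to 88 were higher with these libraries left out, and 15 and 47 with the added terms, instead of 51.

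The other genes of the stretch, taken as 9.7 Mb from just before Armc1 to Eif5a2, were those left once the 10 were taken out. The bounds came from the 10 genes, so the counts over the others are a description. The annotation held 98 genes there, of which 50 had a count and 18 were tested, so 8 genes remained beside the 10. In Prog-Tg versus WT 7 of the 8 were below 0 with a median of -0.39, beside 51.0% of all genes below 0, and in Prog-Tg versus LA-Tg 8 of 8 with a median of -0.77, beside 50.4%. In LA-Tg versus WT 7 of the 8 were above 0 with a median of 0.26, where 51.0% of all genes were below 0. By edgeR 0 of the 8 passed an adjusted p of 0.05 in any comparison, and 2 were lower against WT at the study thresholds (4632415L05Rik and Gm43672), beside 1.82% of all genes. Without the second LA-Tg library the median against LA-Tg was -0.47 and that of LA-Tg against WT was 0.01, and after adding the Y-linked level to the fit the latter was -0.06.

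Among these 8 the 3 Prog-Tg libraries lay below all 6 others for 1 gene, the lincRNA 4632415L05Rik (ENSMUSG00000048106, 19894886 to 19898984). It stood at 7.22, 8.08 and 11.1 CPM in WT, at 10.5, 9.81 and 8.74 in LA-Tg and at 4.34, 5.67 and 5.38 in Prog-Tg. The log2 fold change was -0.77 (SE 0.236) against WT and -0.92 (SE 0.236) against LA-Tg, with edgeR adjusted p of 0.83 and 1.00. The 7 others were Pde7a, a cAMP phosphodiesterase, Cp, which encodes ceruloplasmin, Gm43672, Ect2, an exchange factor needed for cytokinesis, Fndc3b, the kinase gene Tnik, and Eif5a2. Cp was the 1 gene of the 8 above 0 against WT, at 0.08 (SE 0.716), and the closest to 0 against LA-Tg was Eif5a2 at -0.24 (SE 0.207).

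The nearest tested genes beyond the stretch were described next, 2 on each side. On the left Ythdf3, which encodes a reader of m6A in RNA, ended 2.91 Mb before Armc1 and stood at 191 ± 3.6 CPM in WT, at 182 ± 38.2 in LA-Tg and at 191 ± 13.7 in Prog-Tg. Its log2 fold change was -0.00 (SE 0.166) against WT and 0.07 (SE 0.166) against LA-Tg. The next, Car2, a carbonic anhydrase, was at -0.18 (SE 1.08) and -0.31 (SE 1.08), with a range of 6.85 to 107 CPM over WT and Prog-Tg libraries. On the right Rpl22l1 and Mecom, which encodes a zinc-finger transcription factor, were at 0.04 (SE 0.309) and 0.84 (SE 0.672) against WT and at -0.38 (SE 0.31) and -0.06 (SE 0.667) against LA-Tg. The edgeR adjusted p of these 4 genes was 0.83 to 1.00 in Prog-Tg versus WT and 1.00 in the other comparisons. Ythdf3 had the smallest SE of the 4 and Car2 the largest.

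**Figure D4:**
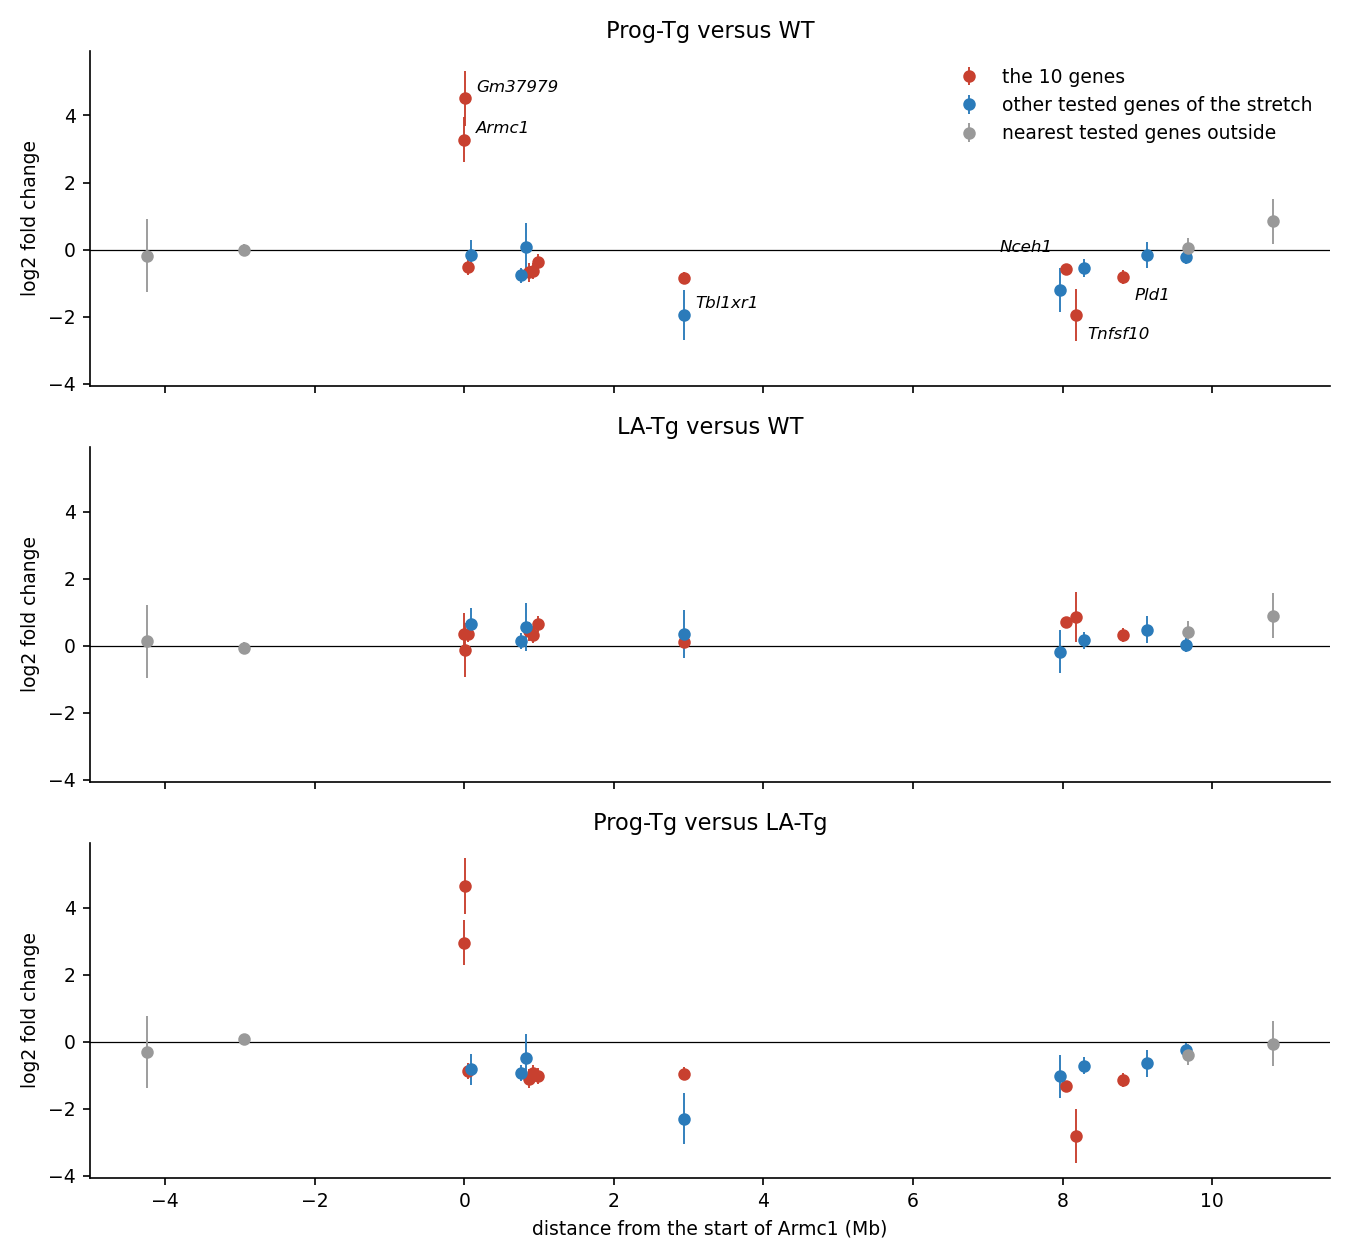
Log2 fold change with its SE (vertical axis) of the 10 genes (red), the 8 other tested genes of the stretch (blue) and the nearest tested genes outside it (grey) by distance from the start of Armc1 in Mb (horizontal axis), 1 panel per comparison. Armc1 and Gm37979 are at 3.28 and 4.51 in Prog-Tg versus WT, and all 8 other tested genes are below 0 in Prog-Tg versus LA-Tg.

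On a fixed grid of 10 Mb over the whole of chromosome 3, with 746 genes tested, the step from 20 to 30 Mb held 13 tested genes, of which 6 were among the 10 and so chosen for their shift in Prog-Tg. Its median was -0.58 for Prog-Tg versus WT, 0.36 for LA-Tg versus WT and -0.95 for Prog-Tg versus LA-Tg, with 13 of 13 genes below 0 in the last. The medians of the other 15 steps ran from -0.24 to 0.21, from -0.27 to 0.21 and from -0.14 to 0.10. Without the 6 chosen genes the medians of the remaining 7 genes of the step were -0.23, 0.36 and -0.64. The first of these was no longer the lowest of the chromosome, since the step from 40 to 50 Mb was at -0.24. The step from 10 to 20 Mb, which holds Armc1, Gm37979, Mtfr1 and Hps3, was at -0.12, 0.09 and -0.14 over 20 genes.

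**Figure D5:**
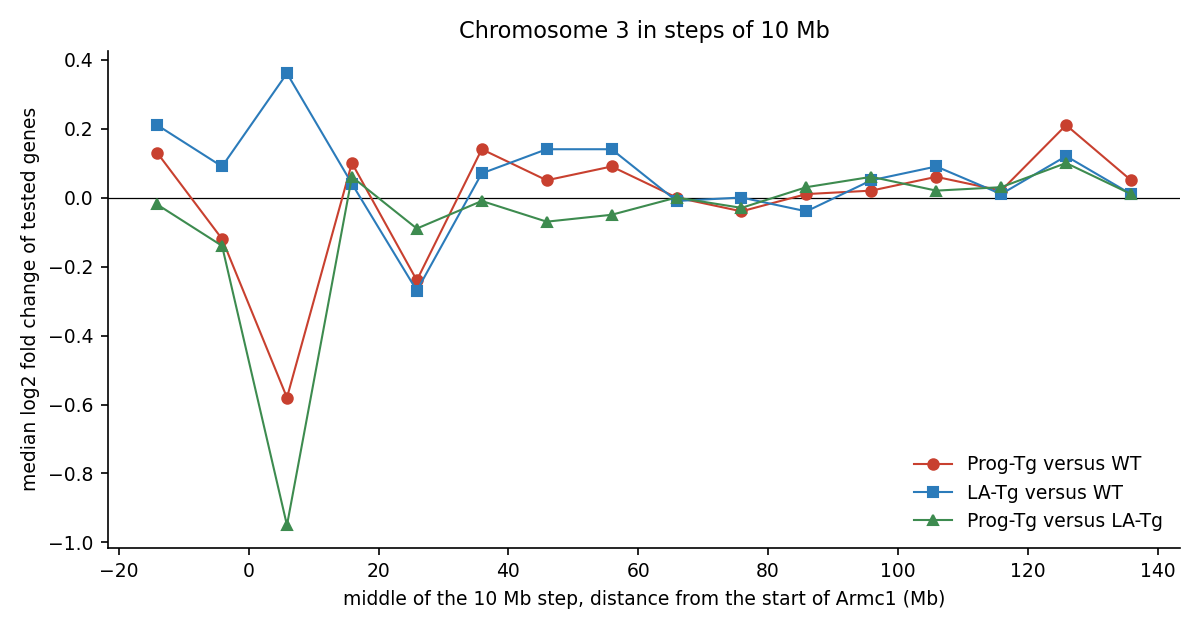
Median log2 fold change of the tested genes (vertical axis) in each 10 Mb step of chromosome 3 by the distance of its middle from the start of Armc1 in Mb (horizontal axis), for the 3 comparisons. The step centred 5.9 Mb from Armc1, in which 6 of 13 genes are among the 10, is at -0.58, 0.36 and -0.95, and the medians of the other 15 steps lie between -0.27 and 0.21.

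Genes that work with the 10 but map elsewhere were read from 8 lists. Of 84 listed genes 78 were tested, 3 of them on chromosome 3 and 0 in the stretch. In Prog-Tg versus WT 33 were below and 45 above 0 with a median of 0.04, and in Prog-Tg versus LA-Tg 35 and 43 with a median of 0.02. By edgeR 0 of the 78 passed an adjusted p of 0.05 in any comparison, and 1 was past the study thresholds against WT (Pygl, higher), beside 0.939% of all genes.

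The mitochondrial list, with the MICOS and sorting complexes that bind Armc1 and the fission factors around Mtfr1, had 5 of 18 tested genes below 0 and a median of 0.08 in Prog-Tg versus WT. Minos1, a MICOS subunit, was at 0.35 (SE 0.177) and Mief2, a receptor for the fission dynamin, at -0.35 (SE 0.234). Of 15 partners of Hps3 in the BLOC and AP-3 complexes 8 were below 0, with a median of -0.04, and the BLOC-1 subunit Bloc1s2 and the BLOC-3 subunit Hps4 were at 0.39 (SE 0.224) and -0.26 (SE 0.227). The 8 Hltf partners had a median of -0.07, with the ubiquitin-conjugating enzyme Ube2a at -0.49 (SE 0.27) and the fork-remodelling translocase Smarcal1 at -0.18 (SE 0.112). The edgeR adjusted p of these 6 genes was 0.83.

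The glycogen list holds enzymes and regulators that act on the chain begun by Gyg. Of 10 tested 6 were above 0, with a median of 0.10 in Prog-Tg versus WT. Gys1, the glycogen synthase of muscle and most other tissues, stood at 49.7, 32.6 and 57.3 CPM in WT, at 39.8, 56.2 and 47.3 in LA-Tg and at 58.9, 63.4 and 83.5 in Prog-Tg, so that all 3 Prog-Tg libraries were above the other 6. Its log2 fold change was 0.56 (SE 0.24, edgeR adjusted p = 0.83). The liver form of glycogen phosphorylase, Pygl, was low at 0.475 ± 0.135 CPM in WT, at 0.978 ± 0.626 in LA-Tg and at 1.9 ± 1.73 in Prog-Tg, with a log2 fold change of 2.03 (SE 0.802, edgeR adjusted p = 0.83).

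For the corepressor partners of Tbl1xr1 the median was 0.00 over 5 genes, with Gps2 at -0.11 (SE 0.152) and Hdac3 at 0.07 (SE 0.115). The cholesterol genes around Nceh1 had a median of -0.02 over 7 genes. Abcg1, a cholesterol exporter, ranged from 12.2 to 216 CPM over the libraries and was at 1.67 (SE 0.998), and Soat1, which makes the esters that Nceh1 cleaves, was at 0.14 (SE 0.126). Of the 8 TRAIL receptors, decoys and caspase-pathway genes 7 were above 0, with a median of 0.43. In LA-Tg versus WT 5 of these 8 were above 0, with a median of 0.29. Casp8, an initiator caspase, was at 0.42 (SE 0.215) in both comparisons with WT and at -0.00 (SE 0.215) in Prog-Tg versus LA-Tg. Of 7 phospholipase D relatives and activators 4 were above 0, with a median of 0.16, and the small GTPase genes Arf6 and Rala were at 0.23 (SE 0.15) and 0.24 (SE 0.162). The edgeR adjusted p of these 7 genes was 0.83 to 0.89.

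The same stretch holds 5 annotated mature miRs, measured in 9 small RNA libraries of the ECs, which the choice of genes did not use. Both arms of miR-7007 had 0 counts in all 9 libraries and those of miR-3092 had 4 each in all. miR-466q had 117 counts, from libraries of 2015256 to 19288343 counts. Relative to the library totals it stood at 0.812, 0.287 and 0 CPM in WT, at 4.654, 0.905 and 2.486 in LA-Tg and at 0.881, 0.803 and 0.145 in Prog-Tg. The lowest LA-Tg value, 0.905 CPM on 3 counts, was close to the highest of Prog-Tg, 0.881 CPM on 17 counts. Prog-Tg overlapped WT, and the counts were 0 to 67 per library. With all 9 libraries none of the 5 passed the filter on low counts, under which 446 miRs were tested, so that these values carry no test. In 4 of the fits with a library left out miR-466q passed the filter, with 0 calls by edgeR at an adjusted p of 0.05 and 1 unadjusted p under 0.05 in 1 comparison, without the third WT library. The 3 mature forms with counts are shown from RefSeq, with the seed (bases 2 to 8) in capitals.
miR-466q, chr3:28419988-28420007, plus strand: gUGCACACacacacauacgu
miR-3092-5p, chr3:27584958-27584979, minus strand: aGGGGAAAaugccuuucuccca
miR-3092-3p, chr3:27584915-27584935, minus strand: gAAUGGGGcuguuuccccucc

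Likeness of pattern was measured as Pearson's r of log2 CPM over the 9 libraries, a description without a test, since the points share their genotype, library and depth. Armc1 was most like Gm37979, with r = 0.96, and least like Tbl1xr1, with r = -0.92. Outside the stretch the genes most like Armc1 were the pseudogene Gm4204 (r = 0.955), Cdv3 (0.946) and Wdr35, a ciliary transport gene (0.942). Their ranges were narrow beside that of Armc1. Cdv3 stood at 79.2, 81.2 and 79.8 CPM in WT, at 81, 79.9 and 77.7 in LA-Tg and at 77.4, 93.3 and 98.4 in Prog-Tg, and Wdr35 at 10.7 ± 1.12, 11.5 ± 1.82 and 17.3 ± 6.32 CPM.

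Among the 8 lower genes r was 0.41 to 0.95, with Hps3 and Hltf, and Mtfr1 and Pld1, at 0.95 and Mtfr1 and Tnfsf10 at 0.41. The genes outside the stretch most like Nceh1 were A430108G06Rik (r = 0.934), Cutal (0.925) and Ece1, the endothelin-converting enzyme (0.916). Ece1 stood at 734, 660.3 and 718 CPM in WT, at 788, 757 and 847 in LA-Tg and at 638, 609 and 484 in Prog-Tg. As with Nceh1, no library of one genotype reached into another. Since Ece1 was picked for its likeness to Nceh1, nothing is read from this. The log2 fold change of Ece1 was -0.29 (SE 0.163) for Prog-Tg and 0.18 (SE 0.163) for LA-Tg against WT, with edgeR adjusted p of 0.83 and 1.00.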

How the data were processed

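Poly(A) RNA was sequenced from 9 EC libraries, 3 each of WT, LA-Tg and Prog-Tg, out of 36 samples in the series, and small RNA from 9 more. The deposited values are raw counts, which the authors obtained with HTSeq 0.5.4p3 from alignments by STAR 2.5.1b to GRCm38. Of the gene identifiers, 99.63% were found in GENCODE M21, which gave positions and exon lengths, and only CPM divided by exon length (RPKM) were compared between genes.

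The 10 genes and all lists were chosen with earlier results of these data known. Libraries were grouped by their labels. Low counts were removed by filterByExpr (at least 10 counts, total of at least 15), and the rest were TMM-scaled and fitted over all 9 libraries with edgeR 4.0.16 in R 4.3.3 (quasi-likelihood F test, Benjamini-Hochberg over all genes kept). The SE is the size of the log2 fold change divided by the root of the F statistic. Scripts were tested on simulated data. Named besides the 10 genes were the 2 nearest tested genes on each side, other tested genes of the stretch whose Prog-Tg libraries lay apart from all others, up to 2 partners per list with the smallest p (1 is not reported here), the 3 genes most like Armc1 and Nceh1, and Cdh5, Icam2 and Lmna.

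Alternatives were DESeq2 1.42.0, limma-voom 3.58.1, RLE or library-size scaling, no filter or a stricter one (over 1 CPM in 3 libraries), a fit of the 2 genotypes compared, terms for a lymphatic score or the Y-linked level, the replicate number as a block, and each library left out. Deviations of same-numbered libraries correlated at 0.67, 0.63 and 0.35 between Prog-Tg and LA-Tg, so the numbers were taken as pairs there, a pairing that comes from the values and not from the labels.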

Additional observations from a re-analysis of the deposited data

How the results depend on the processing

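For the 10 genes in the comparisons with Prog-Tg, 0 fold changes reversed in direction under any alternative run. The genes were chosen for their shifts in these same libraries, so nothing is read from this. DESeq2 called 2 genes in Prog-Tg versus WT and 7 in Prog-Tg versus LA-Tg where edgeR called 0, and with a library left out edgeR called 0 to 1 in the former, the 1 being Armc1 without the first Prog-Tg library. The number of the 10 genes past the study thresholds with a library left out was 5 to 8 in Prog-Tg versus WT, against 7 with all libraries, 10 throughout in Prog-Tg versus LA-Tg and 1 to 3 in LA-Tg versus WT, against 2. It was 1 in LA-Tg versus WT with the lymphatic score as a term and 1 after adding the Y-linked level to the fit. In the same comparison the values near 0 turned sign: Gm37979 was at 0.09 with the replicate block and ran from -0.38 to 0.21 with a library left out, Hps3 was at -0.02 after adding the Y-linked level to the fit, and Tbl1xr1 ran from -0.00 to 0.21 with a library left out. The cause was not tested.

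With the replicate block, 0 genes passed an adjusted p of 0.05 in any comparison. In Prog-Tg versus LA-Tg, where the numbers were taken as pairs, the block left 10 of the 10 genes past the study thresholds and moved the count over all genes from 81 to 144 for higher and from 101 to 115 for lower. It changed no other call of the 10 genes. In the other comparisons at least 1 correlation of same-numbered libraries was at -0.03 or below, and there the block moved the counts in LA-Tg versus WT from 48 to 129 lower and from 51 to 66 higher genes. Counts over all genes in Prog-Tg versus WT ran from 36 to 546 lower genes and from 39 to 526 higher ones, the lowest with the lymphatic score and the highest without a filter on low counts. In the fit of WT and LA-Tg alone, 9 of the 10 genes passed the filter, all but Gm37979. At 3 libraries per genotype no adjusted p of edgeR passed, and the low counts of Gm37979 outside Prog-Tg limit its fold change.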
